A study of Mus musculus with 2 samples.

Results

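The CTCF peaks within 2 Mb of the chromosome end were counted on 16 mouse autosomes in neural precursor cells (NPC) and in embryonic stem cells (ESC). A peak was a member when its centre lay within 2 Mb of the largest peak end of either list on its chromosome, on chromosomes 1 to 19 except 5, 11 and 15. There were 700 such peaks of 51421 in the NPC list and 713 of 54151 in the ESC list, 1413 of 105572 in all. The last peak stands in for the chromosome end, so that distances are from that peak and not from the telomere itself. The stretch is called the last 2 Mb, and the rest is the remainder of the same 16 chromosomes, which held 39568 NPC and 41694 ESC peaks.

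CTCF is a zinc-finger protein that binds DNA at a large number of sites and, together with the cohesin ring, anchors chromatin loops and marks the borders of topological domains. Mouse autosomes are telocentric: the centromere lies at the low-coordinate end and the long arm runs to a single free end in front of the telomere repeat. At human chromosome ends CTCF is known to bind close to the start sites of the telomere repeat transcript TERRA.

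The NPC sample was made from E14 cells and kept on gelatin with the growth factors bFGF and EGF, and the ESC sample was the parent E14 line (E14Tg2A, IB10), grown in medium conditioned by BRL cells with serum and leukemia inhibitory factor. Both carry the same E14 genotype, both were precipitated with the same anti-CTCF antibody, and each cell type had 1 library on the SOLiD platform and 1 deposited peak list on mm9. With 1 library per cell type no difference between NPC and ESC has a replicate check, no p-value is given, and the intervals are 95% intervals that cover counting error over peaks only. Each peak has a score as the authors deposited it, with no definition in the files, so scores were used as ranks within a list: a percentile of 50 is the middle of the whole list. The depth of the libraries is unknown.

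**Figure D1:**
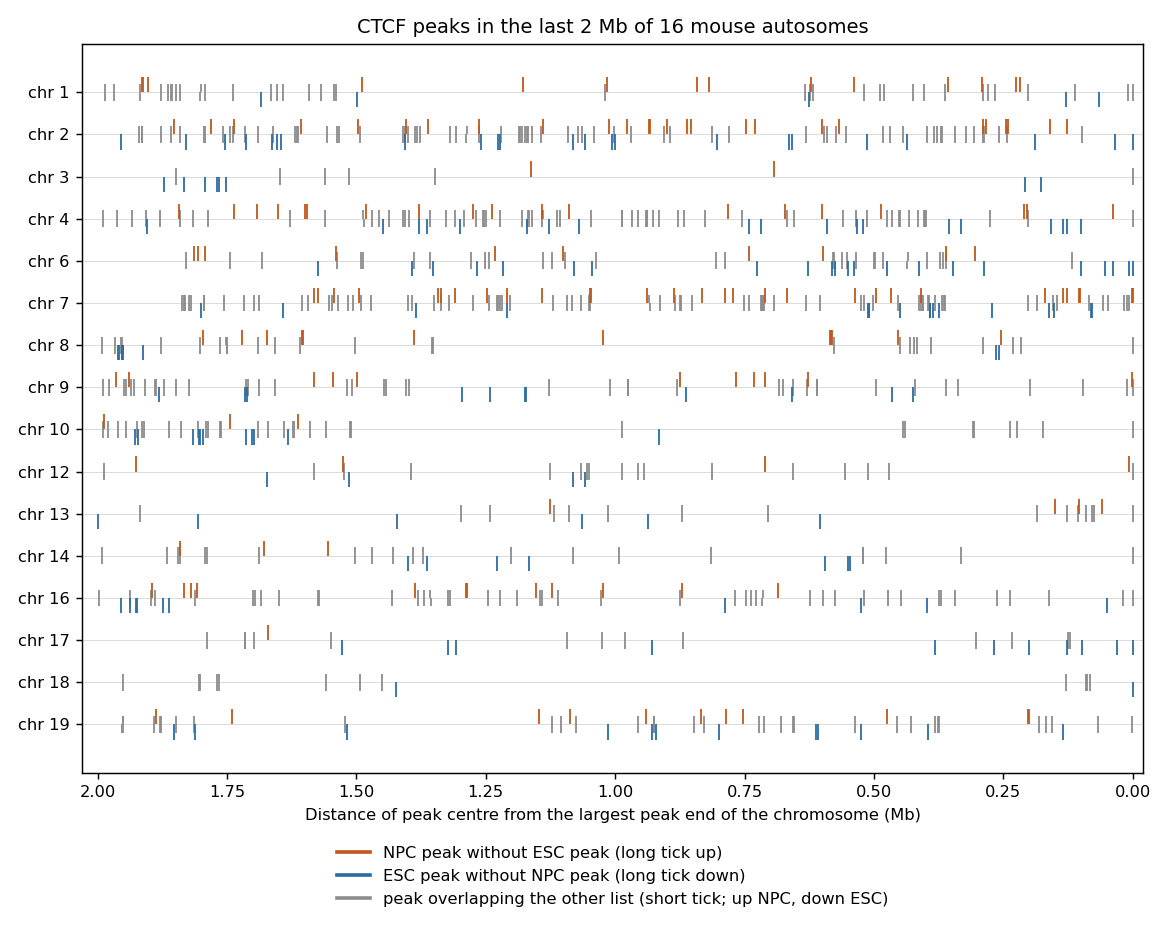
Map of the 700 NPC and 713 ESC peaks in the last 2 Mb of 16 autosomes; each row is a chromosome, the x axis is the distance of the peak centre from the largest peak end in Mb, ticks above the line are NPC peaks and ticks below are ESC peaks, long coloured ticks lack a peak in the other list and short grey ticks overlap one. Chromosomes 2, 4 and 7 are filled with peaks, whereas chromosomes 3, 17 and 18 hold few.

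The last 2 Mb were slightly denser in CTCF peaks than the rest of the same 16 chromosomes but sparser than the stretch just before them. The NPC list held 21.9 peaks per Mb (20.3 to 23.6) in the last 2 Mb, against 19.7 in the rest, a ratio of 1.11 (1.03 to 1.20). The ESC list held 22.3 peaks per Mb (20.7 to 24.0), against 20.7 in the rest, a ratio of 1.08 with an interval that reached just below 1 (0.998 to 1.16). Set against the peaks between 2 and 20 Mb from the end alone, the ratio was 0.871 (0.808 to 0.938) in NPC and 0.849 (0.788 to 0.913) in ESC. Leaving out the end of chromosome 2, 4 or 7 with its chromosome gave an NPC ratio of 1.03 (0.951 to 1.12), 1.05 (0.972 to 1.14) or 1.01 (0.934 to 1.10), each with an interval that included 1. These intervals treat peaks as independent, whereas peaks cluster: over the 16 ends the SD was 30.0 NPC and 26.3 ESC peaks, against 26.95 and 29.2 over 2 Mb windows of the rest. The direction of the density difference depended on which stretch the ends were set against, and its size on which chromosomes were kept.

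By distance, density was highest a few Mb before the end. Between 3 and 4 Mb from the end the NPC list had 27.6 peaks per Mb (25.1 to 30.3) and the ESC list 29.8 (27.1 to 32.5). In the last 0.5 Mb the values were 21.5 (18.4 to 24.96) in NPC and 23.1 (19.9 to 26.7) in ESC. Between 0.5 and 1 Mb they were lowest within the last 2 Mb, at 18.4 (15.5 to 21.6) in NPC and 17.6 (14.8 to 20.8) in ESC. Beyond 20 Mb from the end the NPC list had 18.8 peaks per Mb and the ESC list 19.8. A density of more than 25 peaks per Mb was thus reached in both lists only in the bins between 2 and 10 Mb, apart from the ESC bin from 10 to 20 Mb at 25.4.

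**Figure D2:**
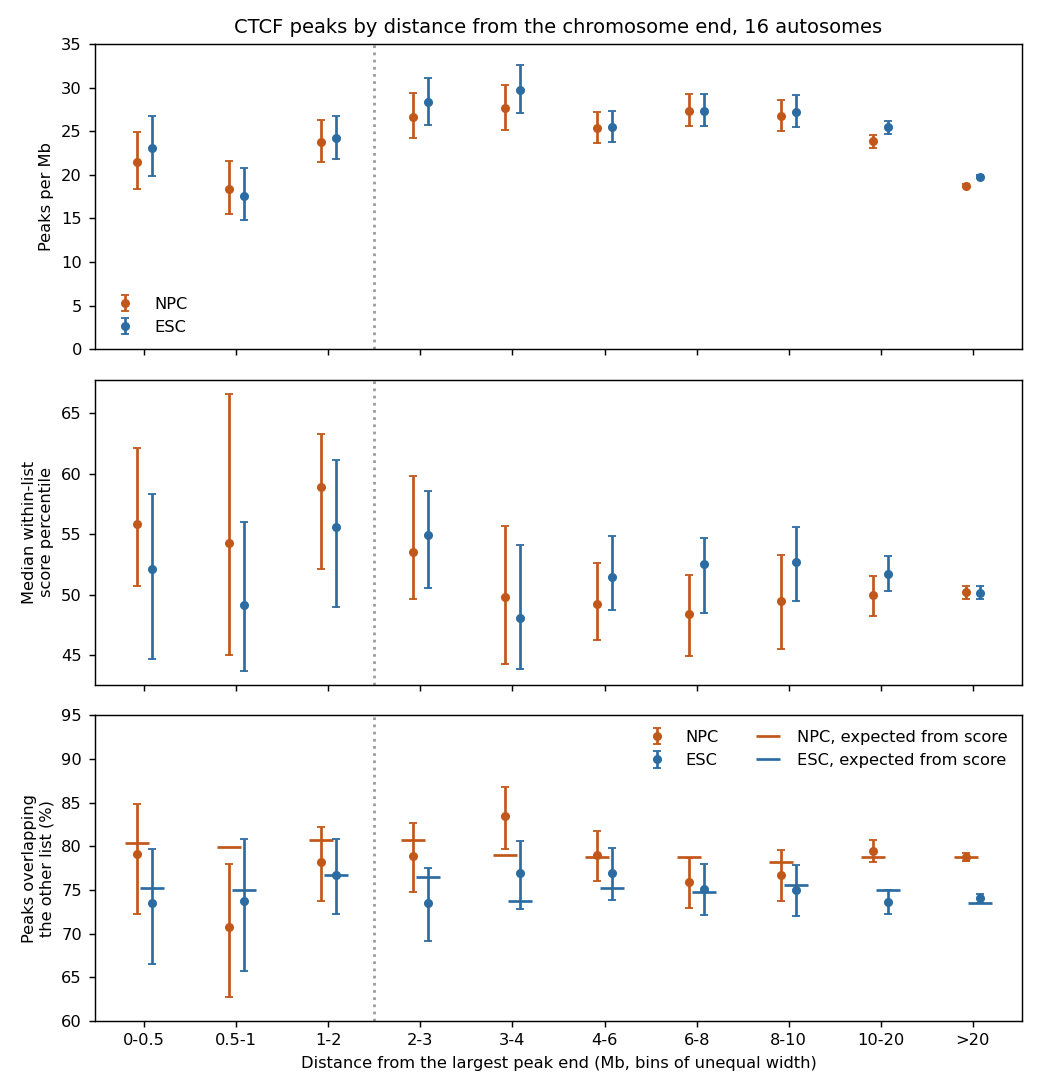
Peaks per Mb (top), median within-list score percentile (middle) and percentage of peaks that overlap a peak of the other list (bottom) by distance from the largest peak end in Mb, for NPC and ESC peaks of 16 autosomes; points are values, bars are 95% intervals, dashes are the overlap expected from peak score, and the dotted line is 2 Mb. Density peaks at 27.6 (NPC) and 29.8 (ESC) peaks per Mb between 3 and 4 Mb and is lower in the last 2 Mb.

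Chromosome ends differed widely from each other, about as widely as single windows inside the chromosomes. The NPC count in the last 2 Mb ranged from 8 to 107 peaks with a median of 39, a 13.4-fold range, and the ESC count ranged from 14 to 94 with a median of 42, a 6.71-fold range. Of 1000 windows of 2 Mb in the rest, the middle 90% held 5 to 94 NPC peaks and 6 to 100.05 ESC peaks, and the SD over windows given above was close to that over ends in both lists.

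The ends with most peaks were those of chromosomes 7, 2 and 4. Chromosome 7 had 107 NPC peaks and 94 ESC peaks in its last 2 Mb, where the rest of that chromosome averaged 43.6 NPC and 46.6 ESC peaks per 2 Mb. Chromosome 2 had 97 NPC and 94 ESC peaks, against 43.2 and 44.7 in its rest, and chromosome 4 had 84 NPC and 83 ESC peaks, against 43.7 and 45.9. These 3 ends held 41.1% of all NPC peaks and 38.0% of all ESC peaks of the last 2 Mb. Such counts also occurred inside chromosomes: of the same 1000 windows, 22 had at least the 107 NPC peaks of the chromosome 7 end and 68 had at least the 94 ESC peaks.

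The ends with fewest peaks also had counts found inside the chromosomes. They were those of chromosomes 3, 18 and 17. Chromosome 3 had 8 NPC and 14 ESC peaks, where its rest averaged 32.2 NPC and 33.5 ESC peaks per 2 Mb. Chromosome 18 had 12 NPC and 14 ESC peaks, against 35.2 and 36.4 in its rest, and chromosome 17 had 14 NPC and 24 ESC peaks, against 46.2 and 51.3. Of the windows of the rest, 8.60% had fewer NPC peaks than the end of chromosome 3, 14.2% fewer than that of chromosome 18 and 17.2% fewer than that of chromosome 17, and the ESC values were 16.2%, 16.2% and 31.7%. Counting error alone, which leaves out the clustering of peaks, set more ends apart: the Poisson interval of the end count lay above the rest of the chromosome in both lists at 4 ends (chromosomes 2, 4, 7 and 16) and below it in both lists at 5 (chromosomes 3, 12, 13, 17 and 18). The ends of chromosomes 12, 13 and 16 had more NPC peaks than 28.0%, 24.5% and 75.9% of the windows. At the other 7 ends the interval did so in 1 list or in neither, as on chromosome 1, where 50 NPC peaks (37.1 to 65.9) stood above the 34.6 of its rest but 41 ESC peaks (29.4 to 55.6) did not stand apart from 36.4.

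**Figure D3:**
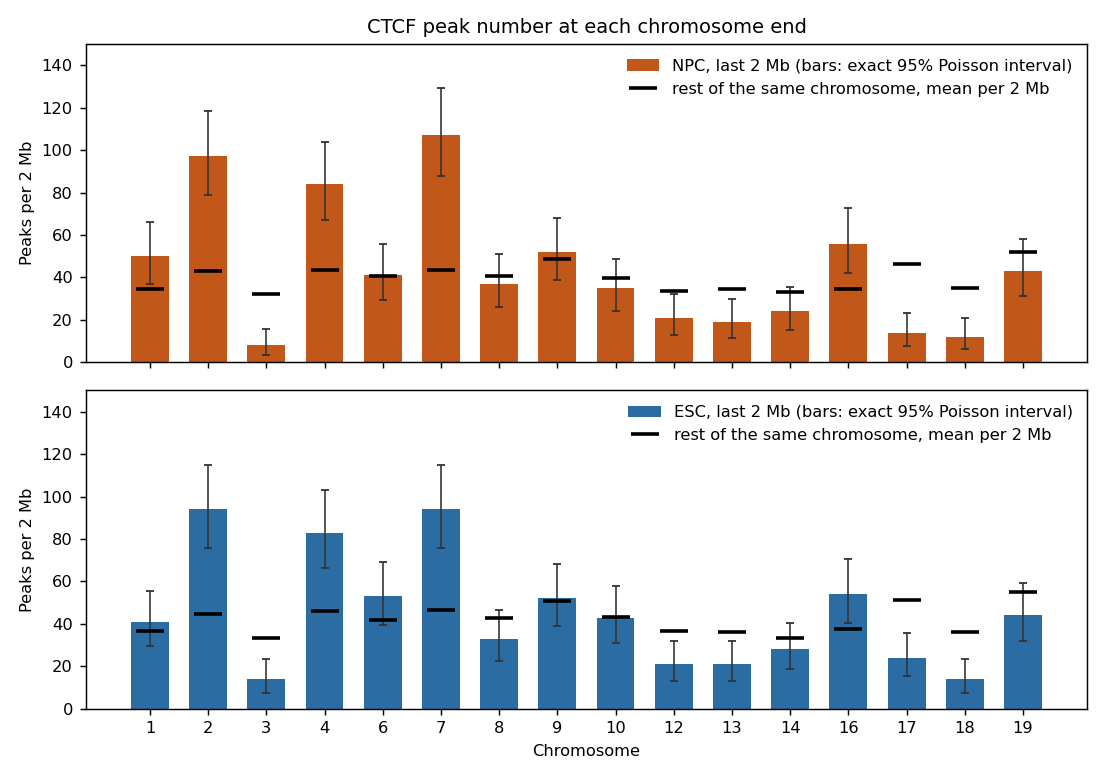
Number of NPC peaks (top) and ESC peaks (bottom) in the last 2 Mb of each chromosome with exact Poisson intervals, and as a black dash the mean number per 2 Mb in the rest of the same chromosome. Chromosomes 2, 4, 7 and 16 stand above their dash in both lists, and chromosomes 3, 12, 13, 17 and 18 below it.

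By gene order in RefSeq (GRCm38), which gives names here but no positions on mm9, the 6 outermost protein-coding genes kept differ between these ends. Genes whose symbol is Gm, LOC, BC or AF with a number, or contains Rik, were left out before counting. Those of chromosome 2 include Myt1, a zinc-finger factor of neural cells, Oprl1, the nociceptin receptor, and Pcmtd2, and those of chromosome 4 include Samd11, Noc2l, Klhl17 and Plekhn1. Those of chromosome 7 include the sensory-neuron receptor genes Mrgprd and Mrgprf, the lysosomal channel gene Tpcn2 and Ccnd1, which encodes the cell cycle regulator cyclin D1, and those of chromosome 16 Zbtb21, Prdm15, Ripk4 and the protease gene Tmprss2. Among the ends with few peaks, chromosome 3 has Wls, needed for secretion of Wnt proteins, and Rpe65, the retinoid isomerase of the visual cycle, chromosome 17 has Mettl4 and Adcyap1, which encodes the neuropeptide PACAP, and chromosome 18 has Tmx3, Dok6 and Cd226. No peak was assigned to any of these genes.

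Peaks were spaced unevenly within the ends. The widest stretch without a peak of either list was 1294 kb long on chromosome 18, from 89285907 to 90580401. The first peak after it was shared, and the last before it was an ESC-only peak. On chromosome 12 a stretch of 464 kb without peaks ended 6.74 kb before the end, and on chromosome 14 a stretch of 331 kb ended 0.632 kb before it, at the outermost shared pair. The ends of chromosomes 4 and 2 had no such stretch longer than 73.9 kb and 81.7 kb. Neighbouring NPC peaks were a median of 18938 bp apart (16604.5 to 21290) in the last 2 Mb, against 20561.5 bp in the rest, and neighbouring ESC peaks 20723.5 bp (17655 to 23187), against 18755.8 bp, so in both lists the interval for the ends included the value of the rest.

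The largest peak end, which defines the end here, belonged to or lay near a site called in both cell types on most chromosomes; in the rest 78.8% of NPC and 74.1% of ESC peaks were shared. On 11 of 16 chromosomes a pair of overlapping NPC and ESC peaks had a centre within 1 kb of the largest peak end, and on the other 5 (chromosomes 2, 6, 7, 17 and 18) the outermost pair lay 6.71 to 121 kb away from it. The pair nearest to it, on chromosome 13, consisted of an NPC peak from 120257122 to 120257423, which scored 130, and an ESC peak from 120257035 to 120257424, which scored 206. On chromosome 10 the outermost NPC peak, from 129973219 to 129973454, scored 157 and the ESC peak, from 129973177 to 129973621, scored 441. On chromosome 4 the NPC peak from 155609448 to 155609757 scored 676 and the ESC peak from 155609266 to 155609847 scored 213. The NPC peaks of chromosomes 13 and 10 stood at percentiles 11.2 and 18.8 of their list and that of chromosome 4 at 67.4, whereas the ESC peaks stood at 22.9, 45.2 and 23.9.

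Peaks of the last 2 Mb scored somewhat higher than the rest in NPC, and in ESC the interval included the value of the rest. The median percentile was 56.2 (52.6 to 60.5) for NPC peaks of the last 2 Mb, against 50.1 (49.6 to 50.6) in the rest. For ESC peaks it was 53.6 (49.2 to 57.1), against 50.5 (50.0 to 51.0). Of the NPC peaks 400 (57.1%) scored above the median of their list, against 50.1% in the rest, and of the ESC peaks 381 (53.4%), against 50.5%. The end median stood above that of the rest of the same chromosome on 10 of 16 chromosomes in NPC and on 8 in ESC. The highest end medians in NPC were those of chromosome 1 at 68.6 (51.5 to 82.8) and chromosome 16 at 67.9 (58.9 to 73.7), and the lowest was that of chromosome 13 at 36.8 (12.6 to 67.3).

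Peak width followed score. NPC peaks were a median of 453 bp wide (437 to 468) in the last 2 Mb, against 433 bp (431 to 434) in the rest, and ESC peaks 586 bp (568 to 597), against 575 bp (573 to 577). The mean width of NPC peaks in the last 2 Mb was 459 ± 138 bp (SD over 700 peaks), where the widths of peaks of the same score decile in the rest gave 454 bp. For ESC peaks it was 591 ± 153 bp (SD over 713 peaks), where the score deciles gave 591 bp. A score decile is 1 of 10 bins of equal size into which a list was divided by score, counted upward.

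The strongest sites were named from the shared pairs of the ends, so that their presence in both lists follows from the choice. Of the 5 pairs with the best ranks, the first lay on chromosome 7, as an NPC peak from 150892360 to 150893175 and an ESC peak from 150892297 to 150893181, with scores of 3100 and 3207. Another lay on chromosome 2, as an NPC peak from 180479818 to 180480553 and an ESC peak from 180479770 to 180480646, both with a score of 3100, a value that 208 NPC and 173 ESC peaks of the whole lists carry. After these came a pair on chromosome 9 (NPC peak 122156576 to 122157722, score 3057, and ESC peak 122156636 to 122157756, score 2756). The next was again on chromosome 2 (NPC peak 181413309 to 181414064, score 2921, and ESC peak 181413220 to 181413994, score 2577), 287 kb from the end. The last was on chromosome 1 (NPC peak 195208946 to 195209730, score 2494, and ESC peak 195208823 to 195209793, score 2460). The other pairs named here lay more than 1 Mb from the end.

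About 3 in 4 end peaks were shared between the cell types, and NPC peaks slightly less often than their scores would give. Sharing means an overlap of 1 bp or more with any peak called in the other cell type. Of the 700 NPC peaks in the last 2 Mb, 538 (76.9%, 73.6 to 79.9) overlapped an ESC peak, against 78.8% (78.4 to 79.2) in the rest. With the sharing rate of each score decile taken from the rest, 80.5% would be shared, so that observed minus expected was -3.63 points (-6.93 to -0.55). Of the 713 ESC peaks 537 (75.3%, 72.0 to 78.4) overlapped an NPC peak, against 74.1% (73.7 to 74.5) in the rest and 76.0% expected from score, a difference of -0.66 points (-3.99 to 2.47).

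In counts, 162 NPC peaks and 176 ESC peaks of the last 2 Mb had no peak in the other list, where their scores gave 137 and 171. As a share this is 23.1% (20.1 to 26.4) of the NPC peaks, beside 21.4% of the whole NPC list, and 24.7% (21.6 to 28.0) of the ESC peaks, beside 26.0% of the whole ESC list. Both shares lie near those of the lists. The difference from expectation in NPC was small and did not hold throughout: leaving out chromosome 1, 2 or 7 gave -2.83 (-6.26 to 0.34), -3.03 (-6.58 to 0.25) or -2.86 (-6.42 to 0.43) points, each with an interval that included 0. With a 50% reciprocal overlap in place of 1 bp it was -1.77 (-5.24 to 1.52) points, and with ends of 5 Mb it was 0.0458 (-1.79 to 1.80). By distance, the NPC difference was -1.32 points in the last 0.5 Mb, -9.22 between 0.5 and 1 Mb and -2.51 between 1 and 2 Mb. Only between 0.5 and 1 Mb did the interval there exclude the expected value (70.7%, 62.7 to 78.0, against 80.0%). Departures also occurred before the ends. They were 4.50 points between 3 and 4 Mb and -2.87 between 6 and 8 Mb, both with an interval that excluded the expected value.

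The NPC difference lay among peaks of low score. In the lower 5 score deciles 155 of 300 NPC peaks of the last 2 Mb (51.7%, 45.9 to 57.5) were shared, against 60.5% expected from the rest, and in the upper 5 deciles 383 of 400 (95.8%, 93.3 to 97.5), against 95.5%. The departure was largest in the third decile, with 20 of 47 NPC peaks shared (42.6%, 28.3 to 57.8), against 63.2% in the rest. For ESC peaks the lower 5 deciles gave 170 of 332 shared (51.2%, 45.7 to 56.7), against 54.2%, and the upper 5 gave 367 of 381 (96.3%, 93.9 to 98.0), against 94.95%. The second ESC decile was also low, with 19 of 66 shared (28.8%, 18.3 to 41.3), against 40.8%, an interval that included the rest. ESC deciles 3 and 4 lay above the rest, at 56.1% against 52.9% and 65.2% against 63.4%. Among the peaks above the list median, 17 of 400 NPC peaks (4.25%, 2.49 to 6.72) were NPC-only, beside 5.01% of the upper 50% of the NPC list, and 14 of 381 ESC peaks (3.67%, 2.02 to 6.09) were ESC-only, beside 4.96% of the upper 50% of the ESC list.

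**Figure D4:**
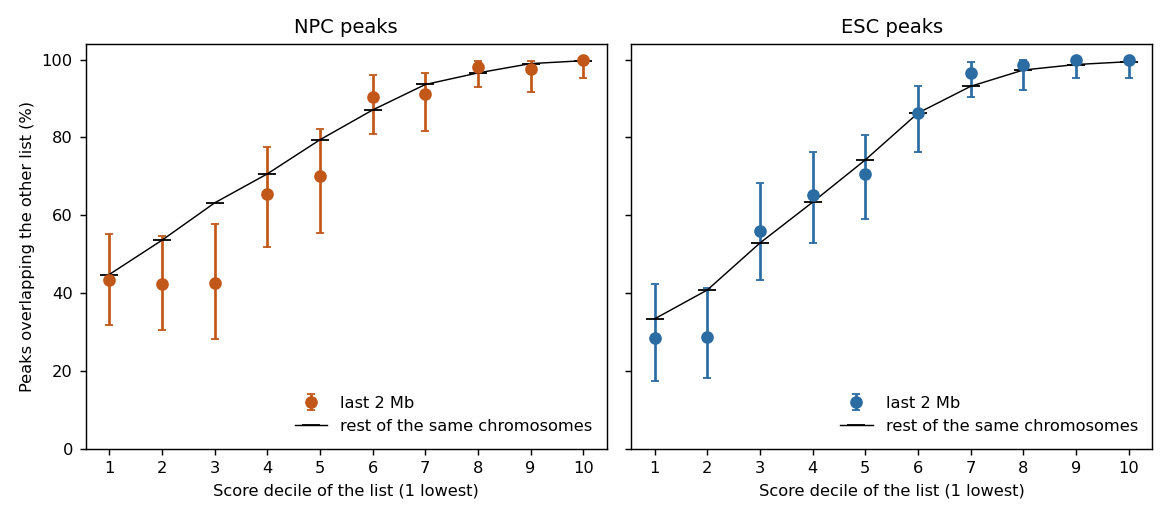
Percentage of peaks that overlap a peak of the other list by score decile, for NPC peaks (left) and ESC peaks (right); coloured points are the last 2 Mb with exact 95% intervals and the black line is the rest of the same chromosomes. NPC points of deciles 2 and 3, at 42.3% and 42.6%, lie below the line at 53.6% and 63.2%. Decile 3 is the only NPC decile with an interval that excludes the line. The ESC point of decile 2, at 28.8%, also lies below the line at 40.8%, with an interval that includes the line.

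Peaks of the ends without an overlapping peak in the other list, called NPC-only and ESC-only, were weak; those named here lay over 1 kb from the other list. The median score was 158 (149 to 171) for the 162 NPC-only peaks, against 674 for shared NPC peaks of the last 2 Mb, and 189 (169 to 223) for the 176 ESC-only peaks, against 779 for shared ESC peaks there. The nearest peak of the other list was a median of 9863.5 bp from an NPC-only peak and 12202.5 bp from an ESC-only peak. The strongest NPC-only peak lay on chromosome 1 from 195156322 to 195156777, with a score of 1238 (rank 6860 in the NPC list), 5302 bp from the nearest ESC peak. The next were on chromosome 14 from 123302041 to 123302609 (score 1070), chromosome 7 from 151775347 to 151775834 (score 768), chromosome 19 from 60589320 to 60589821 (score 766, with no ESC peak within 29323 bp) and chromosome 7 from 151713483 to 151713988 (score 661). In the top score decile of the NPC list 78 of 78 end peaks were shared, beside 99.7% in the rest.

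The strongest ESC-only peaks scored lower in rank than the strongest NPC-only peaks. The first lay on chromosome 2 from 179946763 to 179947475, with a score of 918 (rank 16196 in the ESC list), 3605 bp from the nearest NPC peak, and the second on chromosome 9 from 122332176 to 122332761 (score 835). Chromosome 10 held the following pair, from 128274297 to 128275039 (score 827) and from 128259976 to 128260718 (score 816), and the last lay on chromosome 19 from 61206786 to 61207432 (score 683), 135 kb from the end. The longest runs of neighbouring NPC-only peaks in the ends had 4 peaks, on chromosome 7 between 152350959 and 152384874, on chromosome 8 between 130441821 and 130884122 and on chromosome 9 between 123168887 and 123332991, with scores up to 337, 556 and 489. The longest runs of ESC-only peaks had 5 peaks, on chromosome 3 between 157554773 and 157636684 and at the very end of chromosome 6 between 149341276 and 149441836, with scores up to 405 and 564.

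The numbers of NPC and ESC peaks varied from end to end, but at none of the 16 ends did the share of NPC peaks among both lists stand apart from that in the rest of the chromosome: the interval included it at each. The last 2 Mb of chromosome 1 had 50 NPC and 41 ESC peaks, and 36 of the NPC peaks (72.0%, 57.5 to 83.8) were shared, where their scores gave 85.6%, the only end at which the NPC interval lay below the expected value. On chromosome 7, 77 of 107 NPC peaks (72.0%, 62.5 to 80.2) were shared, against 79.7% expected, and 77 of 94 ESC peaks (81.9%, 72.6 to 89.1), against 75.4%. At the end of chromosome 3, 6 of 14 ESC peaks (42.9%, 17.7 to 71.1) were shared, with an interval below the 72.5% expected. Of the 8 NPC peaks there 6 were shared, with an interval (34.9 to 96.8) that included the 87.7% expected. The end of chromosome 6 had 41 NPC and 53 ESC peaks, with 31 ESC peaks shared (58.5%, 44.1 to 71.9), against 71.6% expected, and that of chromosome 17 had 14 NPC and 24 ESC peaks, with 13 ESC peaks shared (54.2%, 32.8 to 74.5), against 71.6%, both with an interval that included the expected value. At the end of chromosome 18 all 12 NPC peaks had an ESC peak (interval 73.5% to 100%), where 74.7% were expected. Over the 16 ends the observed share was below the expected one at 10 in NPC and at 9 in ESC, and NPC peaks outnumbered ESC peaks at 6, equalled them at 2 and were fewer at 8.

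At sites called in both cell types the median score difference varied from end to end. Its intervals treat neighbouring sites as independent, and its spread over single 2 Mb windows of the rest was not computed. There were 536 NPC and ESC peaks of the last 2 Mb that matched 1-to-1, and their centres differed by a median of 31.5 bp, against 32.0 bp in the rest. The percentile within the NPC list minus that within the ESC list had a median of 0.79 points (-0.61 to 2.47) in the last 2 Mb and of -1.47 points (-1.75 to -1.20) at the 30554 pairs of the rest. The NPC peak had the higher percentile at 278 of the 536 end pairs (51.9%, 47.5 to 56.2) and at 46.5% (46.0 to 47.1) of the pairs of the rest. On chromosome 1 the median difference was 13.9 points (1.61 to 20.4) over 36 end pairs, against -1.68 (-2.79 to -0.82) in the rest of that chromosome, and on chromosome 9 it was 5.78 points (0.89 to 19.8) over 41 end pairs, against -1.32. On chromosome 17 it was -18.95 points (-36.6 to -9.55) over 13 end pairs, against -2.61 in its rest, on chromosome 13 it was -17.7 points (-27.7 to -8.44) over 15 end pairs, against -2.82, and on chromosome 6 it was -9.41 points (-19.5 to -3.47) over 31 end pairs, against -1.43. At the other 11 ends the interval included 0. Of these, chromosomes 4 (-0.09 to 8.93, against -0.16) and 16 (-1.18 to 17.1, against -1.40) had an interval above the value of their rest.

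**Figure D5:**
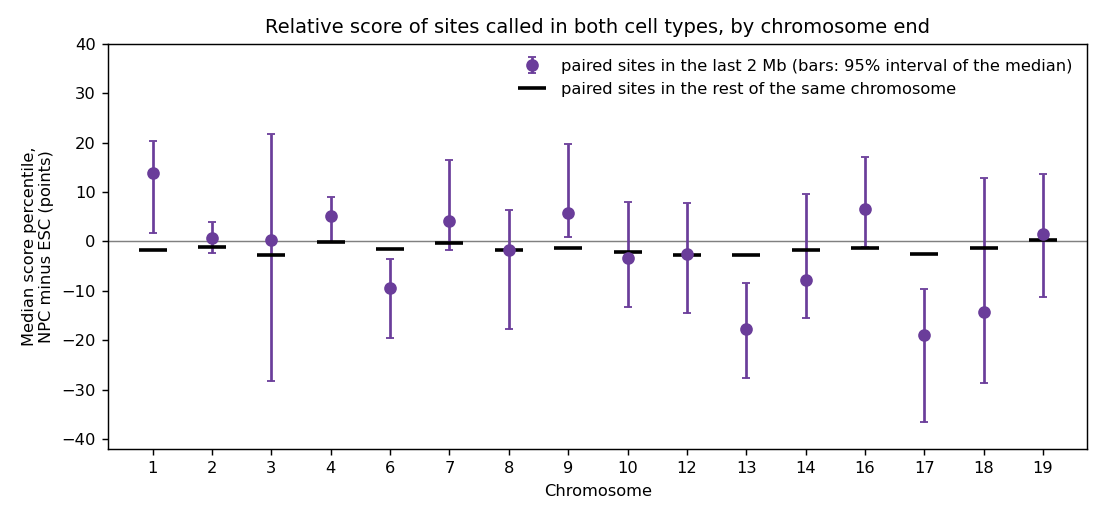
Median difference in within-list score percentile, NPC minus ESC in points, at sites called in both lists; points are the last 2 Mb of each chromosome with the 95% interval of the median and black dashes are the rest of the same chromosome. The intervals of chromosomes 1 and 9 lie above 0 and those of chromosomes 6, 13 and 17 below it, whereas the dashes run from -2.82 to 0.36.

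Grouping the ends by their peak number, a step taken after the counts had been seen, set counts, sharing and paired scores side by side. The groups were formed from these same counts, and the shared shares partly restate the ratio of NPC to ESC peaks. At dense ends 257 NPC and 256 ESC peaks were shared, and at sparse ends 63 of each list. The 4 dense ends (chromosomes 2, 4, 7 and 16) held 344 NPC and 325 ESC peaks, a ratio of 1.06, and the 5 sparse ends (chromosomes 3, 12, 13, 17 and 18) held 74 NPC and 94 ESC peaks, a ratio of 0.787. No interval was computed for these ratios, and at no single end did the share of NPC peaks stand apart from the rest of its chromosome. At dense ends the median percentile was 59.7 (54.3 to 66.8) in NPC and 54.8 (50.4 to 60.8) in ESC, and at sparse ends it was 43.9 (33.7 to 51.4) in NPC and 44.6 (38.8 to 58.4) in ESC. Of the NPC peaks 74.7% (69.8 to 79.2) were shared at dense ends, against 80.6% expected, and 85.1% (74.96 to 92.3) at sparse ends, against 76.2%. Of the ESC peaks 78.8% (73.9 to 83.1) were shared at dense ends, against 77.2% expected, and 67.0% (56.6 to 76.4) at sparse ends, against 72.8%. At 1-to-1 sites the median percentile difference, NPC minus ESC, was 3.12 points (0.89 to 6.02) at 255 pairs of dense ends and -12.9 points (-17.7 to -6.61) at 63 pairs of sparse ends. At each of the 4 dense ends taken alone the interval included 0. The dense ends ran from 0.60 points (-2.42 to 4.02) on chromosome 2 to 6.62 points (-1.18 to 17.1) on chromosome 16. The sparse ends differed among themselves. The difference was 0.21 points (-28.3 to 21.7) on chromosome 3 and -2.57 (-14.5 to 7.74) on chromosome 12, near the -2.79 of its rest. On chromosomes 13 and 17 it was -17.7 and -18.95 points, with intervals below 0. On chromosome 18 it was -14.3 points (-28.7 to 12.8), with an interval that included 0 and the -1.42 of its rest. The part of each end in the pooled value was not computed.

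The values for windows of like peak number inside the chromosomes, each pooled over far more windows than there are ends, are given beside these with no test of the difference. In the 261 windows of the rest with at least 110 peaks of both lists together, the count at the least filled dense end, there were 0.931 NPC peaks per ESC peak, and in the 284 windows with at most 42 there were 0.943. Median percentiles were 53.2 in NPC and 52.9 in ESC in these dense windows, and 42.7 and 43.9 in these sparse windows. Higher scores in dense than in sparse stretches were thus also found inside the chromosomes. The shared share of NPC peaks was 80.6% in these dense windows, against 80.0% expected, and 76.7% in sparse windows, against 75.4%. That of ESC peaks was 74.3% in dense windows, against 75.2% expected, and 72.0% in sparse windows, against 70.6%. The median percentile difference, NPC minus ESC, was -0.67 points (-1.03 to -0.33) in dense windows and -4.65 points (-5.51 to -3.75) in sparse windows. With a single library of each cell type, differences between the cells and between the libraries cannot be told apart.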

How the data were processed

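CTCF ChIP-seq peak lists of 1 NPC and 1 ESC library were used. Peaks were called by the authors with MACS on each library, per the file headers, and mm9 is the build in the submitters' processing notes. On aligner, MACS version, threshold and control nothing is given in the sources used here; both track names end in the word CONTROL, which no source explains. Each score is the authors' deposited value, with a minimum of 100.01 in NPC and 100.02 in ESC. Peak starts and ends are deposited in BED form, and starts are printed counted from 1.

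The members and the steps were chosen with earlier results of these data known. Peaks were assigned to the last 2 Mb by centre. The rest ran from the smallest peak start of either list to that boundary. Density has exact Poisson intervals, shares exact Clopper-Pearson intervals and medians order-statistic intervals, all 95%; expected values were treated as fixed. The expected shared share weights the rate of each score decile in the rest by the end peaks of that decile. Peaks named in the text are those with the best ranks in each class (5 shared pairs, 5 NPC-only and 5 ESC-only peaks over 1 kb from the other list, 3 outermost pairs, and the 3 densest and 3 sparsest ends). The 2 Mb windows of the rest, the grouping of ends, the neighbour distances and the order of genes were added after the counts had been seen. Sequence and gene positions on mm9 were not used. Python 3.11.15, numpy 2.4.6, pandas 2.3.3, scipy 1.17.1 and matplotlib 3.10.9 were used, and the overlap step was checked against bedtools 2.31.1 and the expected share tested on simulated data.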

Additional observations from a re-analysis of the deposited data

Results flagged for a closer look

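In 2 measures the ends departed from the rest in opposite directions in the 2 cell types; neither difference was tested, and each cell type has 1 library. The shared percentage in the last 2 Mb minus that in the rest was -1.95 points in NPC and 1.20 points in ESC. The median distance between neighbouring peaks in the last 2 Mb minus that in the rest was -1623.5 bp in NPC and 1967.7 bp in ESC. For each of these values the interval for the ends included the value of the rest.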

How the results depend on the processing

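The density ratio of ends over rest moved most. With ends of 1 Mb it was 1.01 in NPC and 0.982 in ESC, and with ends of 5 Mb 1.27 and 1.26. All 19 autosomes gave 1.30 and 1.27. Against peaks between 2 and 20 Mb from the end alone it was 0.871 and 0.849, below 1 in both lists. In the upper 50% by score it was 1.27 (1.15 to 1.40) in NPC and 1.14 (1.03 to 1.26) in ESC. Ends of 5 Mb gave a median NPC percentile of 52.5. In the upper 50% by score, set against the whole other list, median percentiles were 76.1 in NPC and 73.9 in ESC, median widths 524.5 and 677 bp, and shared shares 95.8% and 96.3%; the cut itself raises these. Shared shares were 72.4% in NPC and 71.1% in ESC with 50% reciprocal overlap, and 72.7% and 71.4% with centres within 100 bp. Observed minus expected sharing in NPC turned from -3.63 points to 0.0458 with ends of 5 Mb and to 0.28 in the upper 50%; the cause was not tested. Its interval also included 0 with all 19 autosomes (-2.36), centres within 100 bp (-2.47) and peaks within 1 kb (-2.80), while matching on score within chromosomes, on width or on finer score bins gave -3.65, -3.65 and -3.60.

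Leaving out each of the 16 chromosomes in turn, the density ratio ran from 1.01 (without chromosome 7) to 1.17 in NPC and from 1.003 (without chromosome 2) to 1.12 in ESC, the median percentile from 55.6 to 56.9 and from 52.7 to 53.95, the median width from 445.5 to 457 bp and from 582 to 587.5 bp, the shared share from 76.1% to 77.7% and from 74.3% to 76.7%, and observed minus expected sharing from -4.23 to -2.83 points and from -1.75 to 0.47 points. Values whose own interval included no difference also changed side: the ESC density ratio in the 2 settings given above, and ESC observed minus expected sharing, -0.66 points in the text, at 0.19 with ends of 5 Mb, 1.37 in the upper 50%, 1.04 with 50% reciprocal overlap and 0.47 without chromosome 6. The lists give no depth, so weak binding and no binding cannot be told apart where a list has no peak. No paired analysis was possible because each cell type has 1 library, so that no samples could be paired; the 1-to-1 matching in the text pairs sites, not samples.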
